A study of Mus musculus with 30 samples.

Results

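The colony-stimulating factors and their receptors were followed across cultures and tumors of CT-26 and Colon 26, which are colorectal carcinoma lines that arose in BALB/c mice. With earlier results of these data known, but by name and without a rule on levels, 10 genes were chosen from the 53431 genes of the expression table. They comprised the ligands Csf1, Csf2, Csf3, Il34 and Kitl and the receptors Csf1r, Csf2ra, Csf2rb, Csf3r and Kit. The 30 RNA-seq libraries formed 8 groups. Each line had 3 libraries from cells grown in culture and 4 libraries from subcutaneous tumors taken at each of 3 target volumes, 100, 400 and 800 mm3. Cells were placed under the skin of the right flank, in female mice of the BALB/c strain, so host and line shared a strain, and the animals' age is not given in the sources used here. The measured volumes ran from 103.33 to 145.86, from 400.47 to 464.68 and from 810.36 to 938.57 mm3 in CT-26, and from 102.9 to 124.88, from 401.52 to 466.73 and from 807.93 to 963.18 mm3 in Colon 26. No label assigned a treatment to a sequenced tumor, and no source used here names an engineered allele in either line. The study used these models because they share a background and differ in their response to an antibody against PD-1, and the comparisons below ask which factors the cultured lines transcribe, which receptors appear with the tumor, and where the models differ.

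Colony-stimulating factors are secreted or membrane-bound cytokines that keep myeloid and progenitor cells alive and make them divide and mature. Csf1 (M-CSF) and Il34 are separate ligands of the same receptor tyrosine kinase, Csf1r, which is carried by monocytes, macrophages and microglia. Csf2 (GM-CSF) binds a receptor made of the ligand-specific chain Csf2ra and the shared signaling chain Csf2rb, which also serves interleukin 3 and interleukin 5. Csf3 (G-CSF) acts through Csf3r on the neutrophil lineage. Kitl (stem cell factor) acts through the receptor tyrosine kinase Kit, which marks blood progenitors, mast cells and melanocytes. In solid tumors, ligands such as Csf1 can come from the tumor cells themselves or from stroma, while the receptors are mostly carried by infiltrating leukocytes.

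The genes lie at separate positions of the mouse genome, given here in GRCm38 as whole protein-coding genes. Csf1 lies at chr3:107741048-107760469 on the minus strand, Il34 at chr8:110741829-110805924 on the minus strand and Kitl at chr10:100015630-100100416 on the plus strand. Csf2 lies at chr11:54247271-54249667 on the minus strand and Csf3 at chr11:98701263-98703629 on the plus strand. Among the receptors, Csf2ra lies at chr19:61223957-61228429 on the minus strand and Csf2rb at chr15:78325752-78353847 on the plus strand. Csf3r lies at chr4:126024550-126044440 on the plus strand and Kit at chr5:75574916-75656722 on the plus strand. Exons of Csf2, Il34 and Csf1r overlap exons of genes on the other strand (Gm12223, Gm15894 with Gm15895, and Hmgxb3), and no source used here states whether the counting kept strand, so reads in the shared stretches cannot be assigned with certainty. Csf2rb also has a near-identical neighbor, Csf2rb2, whose transcript matched it at 91.0% of 4622 aligned bases. Of the 150-base windows along Csf2rb, 3.47% were identical between the 2 genes, so a small part of their reads could be exchanged.

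Sequence just upstream of the transcript start is shown for the 3 genes on which the results turn: Csf1, the factor at the highest level in both cultured lines; Kitl, the factor that separated the lines in all 4 model comparisons; and Csf2ra, the receptor chain that was almost missing from 2 tumors. The windows came from RefSeq on GRCm38.p6, in the direction of transcription, and hold only bases outside exons. Capitals mark matches to 5 short motifs searched on both strands: the TATA box TATAAA, the CCAAT box, the GC box GGGCGG, the cAMP response element TGACGTCA and the PU.1 core GAGGAA. The windows are 250 bases at chr3:107760470-107760719 (minus strand) for Csf1, 59 bases at chr10:100015571-100015629 (plus strand) for Kitl and 239 bases at chr19:61228430-61228668 (minus strand) for Csf2ra.
Csf1: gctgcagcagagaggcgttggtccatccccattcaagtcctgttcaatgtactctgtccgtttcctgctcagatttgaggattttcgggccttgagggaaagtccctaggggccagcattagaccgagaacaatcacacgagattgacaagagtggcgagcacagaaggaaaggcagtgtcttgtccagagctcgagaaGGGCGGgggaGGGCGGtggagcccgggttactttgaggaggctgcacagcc
Kitl: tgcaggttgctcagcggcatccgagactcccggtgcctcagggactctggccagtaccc
Csf2ra: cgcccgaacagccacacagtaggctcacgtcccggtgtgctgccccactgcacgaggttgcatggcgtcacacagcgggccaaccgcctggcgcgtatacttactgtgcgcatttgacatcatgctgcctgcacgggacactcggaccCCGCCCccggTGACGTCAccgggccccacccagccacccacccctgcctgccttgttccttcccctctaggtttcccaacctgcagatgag
The Csf1 window held 2 GC boxes close to the start, the Csf2ra window held 1 GC box and 1 cAMP response element, and the short Kitl window held none of the motifs. Among 32851 upstream windows of 250 bases, 32.7% held a GC box and 1.55% a cAMP response element, against 12.4% for the TATA box, 33.8% for the CCAAT box and 23.3% for the PU.1 core. The matches describe letters only, and the Kitl and Csf2ra windows were shorter than those behind the shares.

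Library depth ran from 21384697 to 39722554 assigned fragments, and the Colon 26 cultures were the deepest. Levels below are CPM, each gene's share of the library's counts scaled to a fixed total after trimmed-mean correction of library size, and levels of different genes are compared only as FPKM, which corrects for transcript length. A library at or under 3 counts of a gene was treated as at the floor of measurement, which lay between 0.0722 and 0.1397 CPM. A gene was called different in edgeR's quasi-likelihood test at a Benjamini-Hochberg adjusted p of at most 0.1, over all genes tested, together with a log2 fold change of at least 1 in size. The library numbers of the cultures and tumors fell into different series, as did those of the CT-26 and Colon 26 cultures. Library series therefore cannot be told apart from tissue, nor from line in the culture comparison, and no source says that the cultures were grown separately, so their p-values may cover only technical spread. Of the epithelial markers Epcam, Krt8, Krt18, Krt19 and Cdh1, Epcam and Cdh1 stayed at or under 3 counts in all CT-26 cultures. Epcam, Krt18, Krt19 and Cdh1 did so in all Colon 26 cultures. Krt18 averaged 10.99 FPKM in CT-26 cultures and 0.0175 FPKM in Colon 26 cultures. Krt8 averaged 0.212 and 0.0443 FPKM in the same order, and Krt19 averaged 0.0644 FPKM in CT-26 cultures.

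The cultured lines themselves transcribed Csf1, Il34 and Kitl, held Csf2 at a trace and had almost no Csf3. Csf1, the growth and survival factor of macrophages, was the most abundant factor in both lines. Its CPM was 565, 589 and 567.9 in the CT-26 cultures and 832, 855 and 875 in the Colon 26 cultures, with every Colon 26 value above every CT-26 value. On the FPKM scale Csf1 averaged 153 in CT-26 and 230 in Colon 26, above 97.22% and 98.26% of the genes with more than 3 counts in the respective cultures. The Colon 26 level was higher by 0.62 ± 0.03 (SE) on the log2 scale (adjusted p = 4.81e-12), a difference below the fold threshold, in a comparison where 82.6% of all genes passed the p threshold alone. Il34, the alternative ligand of Csf1r, went the other way. It stood at 17.6, 17.0 and 17.6 CPM in CT-26 and at 11.6, 11.5 and 11.3 CPM in Colon 26, without overlap (log2 fold change of -0.55 ± 0.06, adjusted p = 2.84e-07). By FPKM, Il34 therefore made up 6.15% ± 0.31 (SD, n = 3) of the summed Csf1 and Il34 in CT-26 cultures and 2.93% ± 0.10 (SD, n = 3) in Colon 26 cultures.

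Kitl and Csf2 were the 2 of 4 tested members called between the cultured lines, where 22.9% of all 14334 genes tested were called. Kitl, the ligand of Kit, measured 113, 119.6 and 115 CPM in the CT-26 cultures and 17.4, 14.7 and 15.8 CPM in the Colon 26 cultures. The lower Colon 26 level, a log2 fold change of -2.81 ± 0.05 (adjusted p = 2.4e-17), placed all 3 cultures of that line well under all 3 of the other. Csf1 was 7.32 ± 0.07 times as high as Kitl by FPKM in CT-26 cultures (SD, n = 3) and 78.3 ± 7.6 times as high in Colon 26 cultures (SD, n = 3). Csf2, the granulocyte-macrophage factor, rested on few reads, with 23, 32 and 32 counts in CT-26 and 5, 7 and 6 counts in Colon 26. In CPM these were 1.07, 1.19 and 1.33 against 0.135, 0.168 and 0.146 (log2 fold change of -2.91 ± 0.31, adjusted p = 2.95e-07), again without overlap. Csf2 passed the filter on low counts only through the CT-26 cultures, so its call and p-value add no support. Csf3, the neutrophil factor, had 0, 1 and 0 counts in the CT-26 cultures and 2, 1 and 11 in the Colon 26 cultures. It never passed the filter on low counts in any comparison and was not tested, and with no filter it was called in this comparison, at these counts.

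Receptor transcripts were near the floor in the same cultures. All 3 Colon 26 cultures held 0 counts of Csf2ra, Csf3r and Kit, at most 3 counts of Csf1r and at most 1 count of Csf2rb. A count of 0 there allows up to 0.08117 CPM in the shallowest of those libraries. CT-26 cultures held 2 counts of Csf2ra in each library and at most 1 count of Csf3r and of Kit, but Csf1r was above the floor at 10, 7 and 15 counts and Csf2rb reached 7 counts in 1 library. Csf1r was thus not strictly limited to tumors. In the same CT-26 cultures the macrophage genes C1qa, C1qb and C1qc averaged 0.468, 0.485 and 0.447 FPKM, against 355, 270.0 and 258 FPKM in CT-26 tumors of 100 mm3, and 7 of the 8 macrophage markers, with Adgre1 as the exception, exceeded 3 counts in at least 1 library. The leukocyte gene Ptprc measured 0.0203 to 0.0452 FPKM in those cultures, against 3 of 8 macrophage markers over 3 counts and Ptprc at the floor in the Colon 26 cultures. The part of these transcripts in the Csf1r and Csf2rb counts was not tested. Csf1r did not pass the low-count filter between the cultures, but it passed and was called without CT-26 culture replicate 2 or without any one of the Colon 26 cultures.

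**Figure D1:**
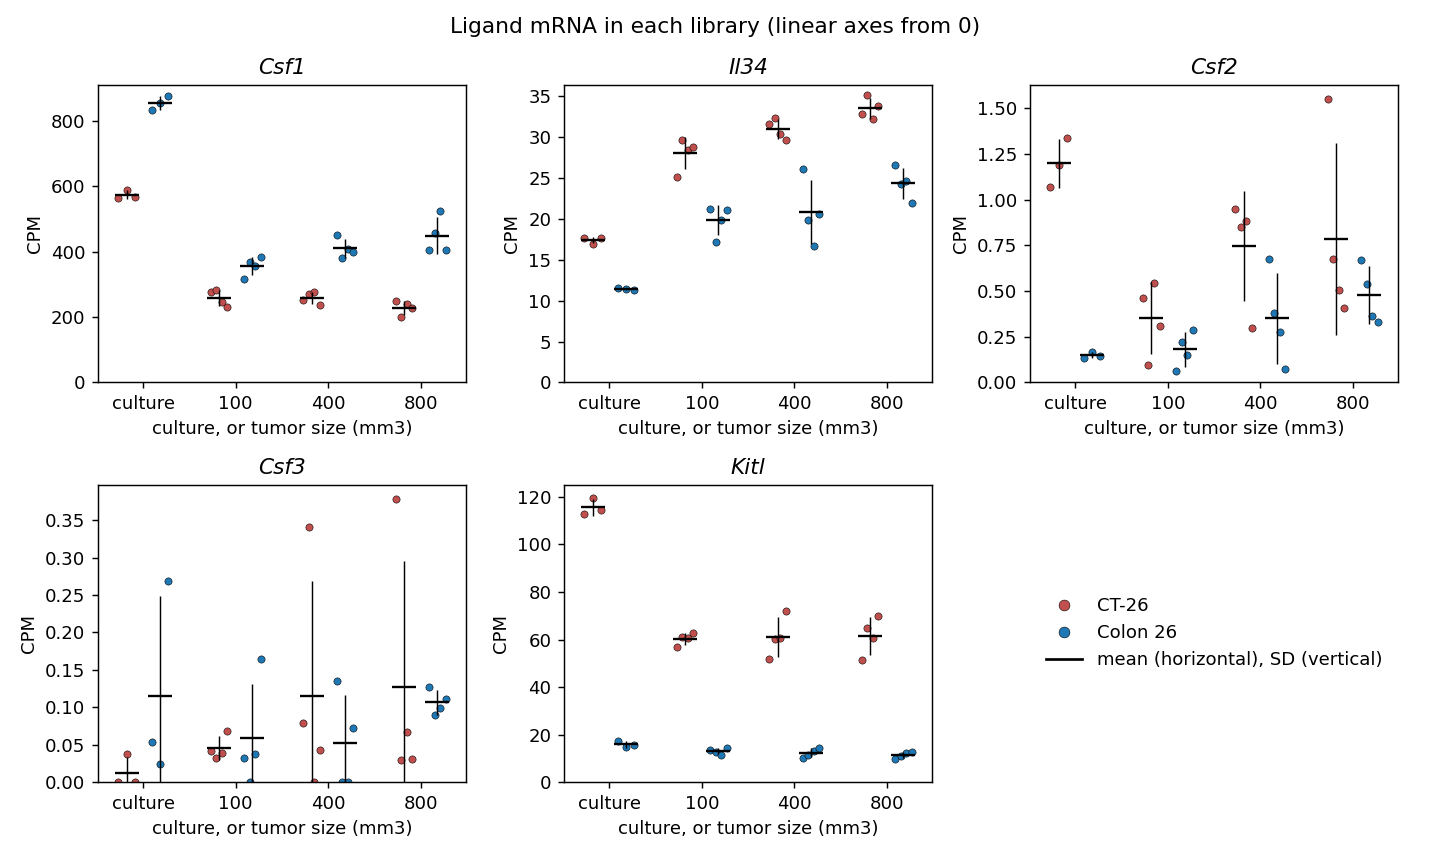
Levels of the 5 ligands in every library, as CPM on linear axes from 0, in culture and by tumor size; points are libraries, horizontal bars are means and vertical bars are SD (n = 3 cultures or 4 tumors). Csf1 and Kitl sit highest in culture, Kitl is higher in every CT-26 library than in every Colon 26 library, and Csf3 stays at or under 0.379 CPM.

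All 5 receptors were far higher in tumors of 100 mm3 than in the cultures of either line. The comparison of 100 mm3 tumors with cultures called 7 of 9 tested members in CT-26 and 6 of 8 in Colon 26. Of all genes tested, 32.2% were called in CT-26 (22.2% higher in tumors) and 26.9% in Colon 26 (20.8% higher). A gene at the floor in culture passed the low-count filter only because it was high in tumors, so these counts describe the genes and add no support. Csf1r, the receptor of Csf1 and Il34, measured 131, 259, 238 and 238 CPM in the CT-26 tumors of 100 mm3 and 307, 343, 356 and 340.1 CPM in the Colon 26 tumors. Against the floor, Colon 26 tumors were at least 4144-fold higher than cultures, and CT-26 tumors were higher by 8.93 ± 0.40 on the log2 scale (adjusted p = 9.99e-07). Csf2rb, the shared signaling chain, ran from 28.3 to 48.2 CPM in CT-26 tumors and from 54.2 to 67.2 CPM in Colon 26 tumors. Its increase over culture was 7.96 ± 0.36 on the log2 scale in CT-26 (adjusted p = 9.99e-07) and at least 741.2-fold in Colon 26. Neither Csf1r nor Csf2rb passed the low-count filter between the cultures. Both therefore entered the CT-26 test through the tumors, and these p-values add no support.

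The other receptors were at the floor in the cultures of both lines, so their changes are lower bounds. Csf2ra, the ligand-binding chain for Csf2, was at least 115.8-fold higher in CT-26 tumors of 100 mm3 and at least 336.8-fold higher in Colon 26 tumors. Csf3r, the granulocyte factor receptor, was at least 82.5-fold and 123.7-fold higher in the same order, and Kit at least 59.2-fold and 61.3-fold higher. The adjusted p-values of these 6 edgeR tests lay between 1.54e-06 and 1.58e-05. Since these genes passed the low-count filter only through the tumors, the p-values add no support. With a pseudocount of 1 on the FPKM scale, the limma log2 difference of Kit in Colon 26 was 0.97, below the fold threshold. In bulk tumor RNA, a change in the number of cells that carry a receptor and a change of its RNA in each cell cannot be told apart. The summed FPKM of 8 macrophage markers rose from between 50.9 and 54.8 in CT-26 cultures, most of it Cd68, to between 916 and 1457 in its 100 mm3 tumors, and from between 4.35 and 5.53 to between 1005 and 1357 in Colon 26.

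**Figure D2:**
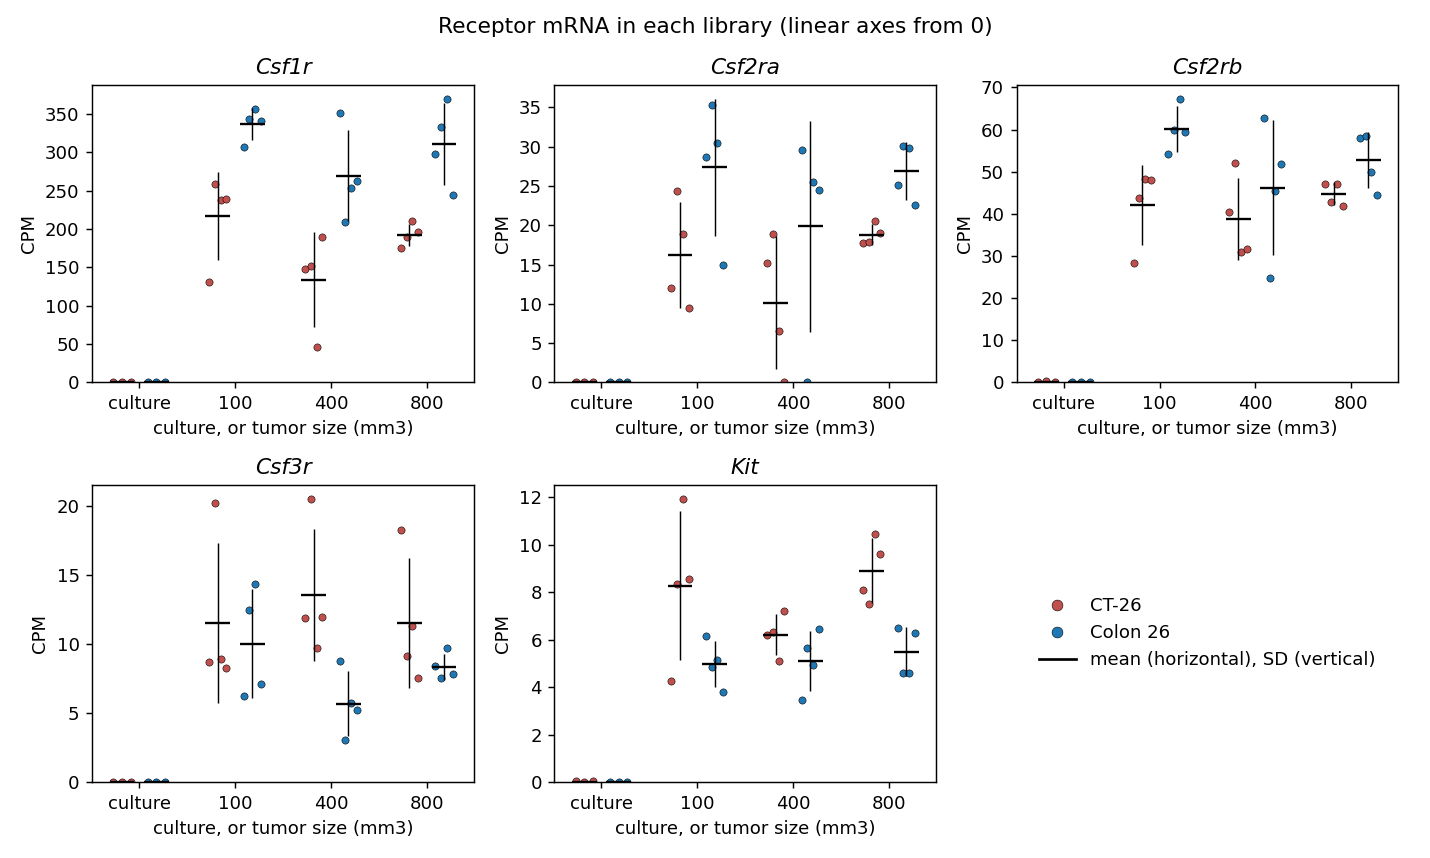
Levels of the 5 receptors in every library, as CPM on linear axes from 0, in culture and by tumor size; points are libraries, horizontal bars are means and vertical bars are SD (n = 3 cultures or 4 tumors). All cultures lie near 0 and the tumors above them, except for Csf2ra in 1 CT-26 and 1 Colon 26 tumor of 400 mm3.

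Ligand transcripts moved the other way or little between culture and tumor. Csf1 fell in both models, to 275, 281, 246 and 230.2 CPM in CT-26 tumors of 100 mm3 and to 316, 369.5, 356 and 382 CPM in Colon 26 tumors, each below all cultures of its line. The change was -1.15 ± 0.08 on the log2 scale in CT-26 (adjusted p = 7.69e-06) and -1.26 ± 0.06 in Colon 26 (adjusted p = 1.6e-07). Kitl was lower by less, at 56.7, 60.9, 60.6 and 62.7 CPM in the CT-26 tumors (log2 fold change of -0.93 ± 0.06, adjusted p = 3.82e-06) and 13.6, 12.7, 11.5 and 14.3 CPM in the Colon 26 tumors (-0.29 ± 0.09, adjusted p = 0.0168). Neither passed the fold threshold. Il34 was the only ligand that was higher in tumors of both models, at 25.2, 29.6, 28.3 and 28.8 CPM in CT-26 (0.69 ± 0.09, adjusted p = 1.69e-04) and 21.2, 17.2, 19.9 and 21.05 CPM in Colon 26 (0.79 ± 0.08, adjusted p = 2.51e-05), also under a fold change of 1 on the log2 scale. Its share of summed Csf1 and Il34 FPKM was 19.4% ± 2.1 in CT-26 tumors of 100 mm3 and 10.96% ± 1.496 in Colon 26 tumors (SD, n = 4 each), above the cultures of each line. By the p threshold alone, 75.5% of all genes passed in CT-26 and 78.9% in Colon 26.

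Csf2 fell in CT-26 from 23 to 32 counts per culture to 11, 3, 14 and 9 counts per tumor of 100 mm3 (log2 fold change of -1.77 ± 0.44, adjusted p = 0.00627). It passed the low-count filter here only through the cultures, so the p-value adds no support. With the pseudocount of 1 on FPKM, the limma value was -0.80 and below the fold threshold. In Colon 26, Csf2 had 2, 8, 4 and 7 counts in these tumors and did not pass the low-count filter. The fall of Csf1 and Kitl and the rise of the receptors came in tissue that is a mix of tumor and host cells, and the share of tumor cells in each tumor was not measured here.

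Kitl and Csf1 kept the order of the cultured lines when the tumors of the models were compared. Kitl was called lower in Colon 26 at 100, 400 and 800 mm3, with log2 fold changes of -2.22 ± 0.08 (adjusted p = 4.48e-07), -2.31 ± 0.14 (adjusted p = 8.58e-06) and -2.42 ± 0.11 (adjusted p = 2.62e-07). Its highest Colon 26 tumor measured 14.6 CPM and its lowest CT-26 tumor 51.2 CPM, so the 12 tumors of each model were fully apart. At 400 mm3 the CT-26 tumors had 51.7, 60.4, 60.4 and 72.0 CPM and the Colon 26 tumors 10.2, 11.4, 13.1 and 14.6 CPM. At 800 mm3 the values were 51.2, 64.7, 60.6 and 69.9 CPM against 9.96, 11.1, 12.4 and 12.9 CPM. Across the tumor sizes, 13.2%, 14.3% and 14.1% of all genes tested were called, and the members called were 1 of 8, 3 of 9 and 1 of 9.

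Csf1 was higher in Colon 26 at each size without overlap but under the fold threshold, with log2 fold changes of 0.45 ± 0.08, 0.66 ± 0.08 and 0.96 ± 0.10 (adjusted p = 0.00205, 0.000283 and 2.86e-05). At 800 mm3 the CT-26 tumors measured 249, 199.7, 239 and 228 CPM and the Colon 26 tumors 404, 458, 524 and 406 CPM. That difference reached a log2 fold change of 1.01 to 1.04, and so was called, with library-size scaling, in both limma fits and without any one of 3 tumors (CT-26 replicate 1, Colon 26 replicates 1 and 4). Il34 was lower in Colon 26 at each size, also without overlap, by -0.51 ± 0.09, -0.57 ± 0.13 and -0.47 ± 0.07 on the log2 scale (adjusted p = 0.00147, 0.00594 and 0.000371). By the p threshold alone, 56.5%, 52.2% and 59.4% of all genes passed at the respective sizes. Csf2 differed by -1.08 ± 0.56 at 400 mm3 (adjusted p = 0.15) and by -0.69 ± 0.44 at 800 mm3 (adjusted p = 0.219), and its groups overlapped. At 400 mm3 it was called without CT-26 replicate 4 (-1.34), without Colon 26 replicate 1 (-1.61) and with all 30 libraries in the fit (-1.08, adjusted p = 0.0758).

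**Figure D3:**
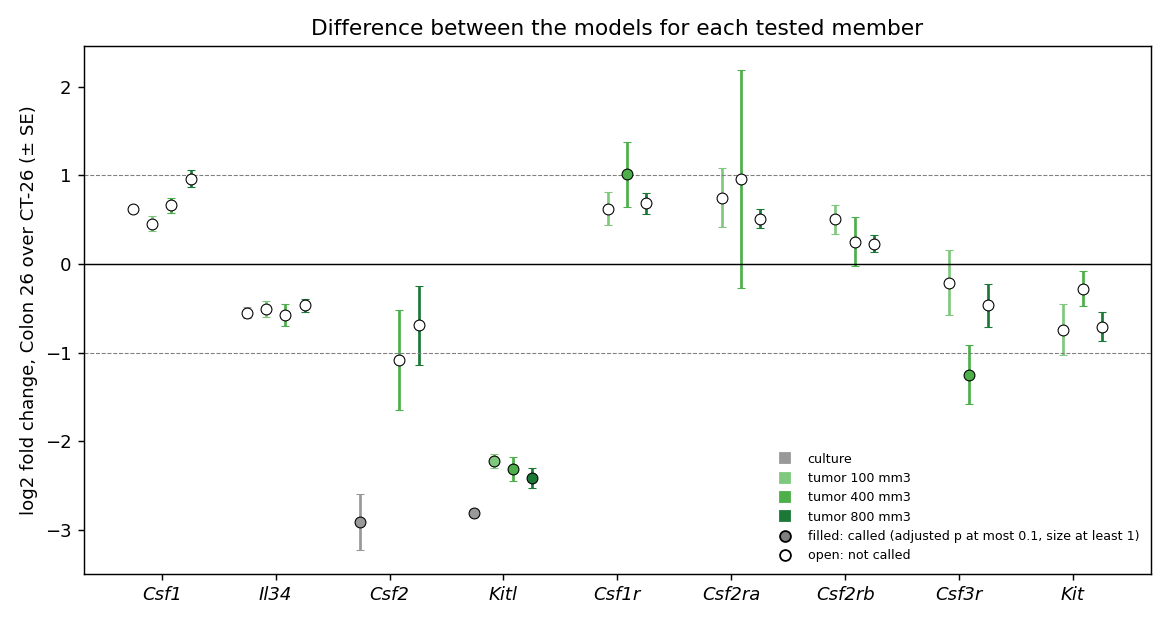
Log2 fold change of each tested member, Colon 26 over CT-26, in culture and in tumors of 100, 400 and 800 mm3, with bars of 1 SE; filled points were called, open points were not, and dashed lines mark a fold change of 1 on the log2 scale. Kitl lies between -2.81 and -2.22 in all 4 comparisons, Csf1 above 0 and Il34 below 0.

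Receptor differences between the models were smaller than those of Kitl and went in both directions. Csf1r was higher in Colon 26 tumors at each size without overlap, by 0.63 ± 0.19 (adjusted p = 0.022), 1.01 ± 0.36 (adjusted p = 0.0498) and 0.68 ± 0.12 (adjusted p = 0.000693) on the log2 scale. Only the 400 mm3 value was called. There the CT-26 tumors measured 148, 151, 46.4 and 189.9 CPM and the Colon 26 tumors 351, 209.6, 253 and 263 CPM. The gene itself lies at chr18:61100598-61132149 on the plus strand. The call rested on single tumors, since the difference was 0.73 without CT-26 replicate 3 and 0.86 without Colon 26 replicate 1 (adjusted p = 0.109). CT-26 replicate 3 at 46.4 CPM also had the lowest summed macrophage-marker FPKM of all tumors, 185.4. Csf1r is set against macrophage markers at each size below, and the part of macrophage content in the difference was not tested beyond that. Csf2rb was higher in Colon 26 by 0.50 ± 0.16 at 100 mm3 (adjusted p = 0.0276), 0.25 ± 0.28 at 400 mm3 (adjusted p = 0.488) and 0.23 ± 0.09 at 800 mm3 (adjusted p = 0.0603), under the fold threshold at each size. Its paralog Csf2rb2 gave 0.63, 0.25 and 0.20 (adjusted p = 0.0282, 0.617 and 0.157).

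Csf3r and Kit were lower in Colon 26 where they differed. Csf3r was called at 400 mm3 alone, where CT-26 tumors measured 11.9, 20.5, 9.75 and 11.97 CPM and Colon 26 tumors 8.79, 3.03, 5.72 and 5.24 CPM, without overlap (log2 fold change of -1.25 ± 0.34, adjusted p = 0.015). Without CT-26 replicate 2, the highest of the group, the difference was -0.97 and the call was lost, as it was in limma on log2(FPKM + 1), at -0.86. At 100 mm3 the Csf3r difference was -0.21 ± 0.37 (adjusted p = 0.67) and turned to 0.21 without CT-26 replicate 2, which held 20.2 CPM against 8.27 to 8.89 CPM in the other 3 tumors. At 800 mm3 it was -0.47 ± 0.24 (adjusted p = 0.13), with overlap. Kit stood at 8.1, 7.49, 10.4 and 9.60 CPM in CT-26 tumors of 800 mm3 and at 6.48, 4.6003, 4.596 and 6.27 CPM in Colon 26 tumors, apart from each other (-0.71 ± 0.17, adjusted p = 0.00503). At 100 and 400 mm3 the groups overlapped, with Kit differences of -0.74 ± 0.29 (adjusted p = 0.0579) and -0.28 ± 0.20 (adjusted p = 0.295).

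Csf2ra was almost missing from 2 tumors. In CT-26 tumors of 400 mm3 it had 385, 553, 171 and 2 counts, and in Colon 26 tumors of 400 mm3 877, 1, 827 and 676 counts, while every other tumor held between 276 and 1282 counts. The tumors with 2 counts (CT-26 replicate 4) and 1 count (Colon 26 replicate 2) still held 741 and 651 counts of Csf2rb, the partner chain, and 4440 and 5529 counts of Csf1r. The ratio of Csf2ra to Csf2rb in FPKM was 0.00696 in the CT-26 tumor and 0.00397 in the Colon 26 tumor. It was 0.508 in CT-26 100 mm3 replicate 4, 0.546 in CT-26 400 mm3 replicate 3 and 0.651 in Colon 26 100 mm3 replicate 4. The other 19 tumors lay between 0.933 and 1.535, with a median of 1.16. By contrast, the ratio of the paralog Csf2rb2 to Csf2rb stayed between 0.307 and 0.563 in all 24 tumors.

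Few other genes behaved this way in the same libraries. A search for genes at or under 3 counts in a tumor while the other tumors of the model had a median of at least 100 counts found Csf2ra alone in CT-26 400 mm3 replicate 4. In Colon 26 400 mm3 replicate 2 it found Csf2ra, Mgl2 and Ptx3, and the 24 tumors had between 0 and 7 such genes each. Genes within 1 Mb of Csf2ra on chromosome 19 did not follow it. Only genes whose median level in the other tumors of the model came to at least 100 counts were checked. All lay at lower coordinates because Csf2ra lies near the end of the chromosome. The nearest lay 83117 bases away for the CT-26 tumor and 127989 bases away for the Colon 26 tumor. Relative to the median of the other tumors of the model, 7 neighbors in the CT-26 tumor lay between -0.18 and 0.05 on the log2 scale (median 0.01) and 6 neighbors in the Colon 26 tumor between -0.06 and 0.50 (median 0.07). What set Csf2ra apart in these libraries was not tested. The 400 mm3 model difference of Csf2ra was 0.96 ± 1.23 (adjusted p = 0.556) with both tumors and 0.97 (adjusted p = 0.0691) without them. At 100 mm3 Csf2ra was higher in Colon 26 by 0.75 ± 0.33 (adjusted p = 0.0934) with overlap, and by 1.02, a call, without CT-26 replicate 2. At 800 mm3 the CT-26 tumors measured 17.8, 17.8, 20.6 and 18.9 CPM and the Colon 26 tumors 25.1, 30.1, 29.8 and 22.6 CPM, without overlap (0.51 ± 0.10, adjusted p = 0.00216). With those 2 tumors left out, the 400 mm3 comparison still called 3 members, Kitl at -2.18, Csf1r at 1.33 and Csf3r at -1.09.

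**Figure D4:**
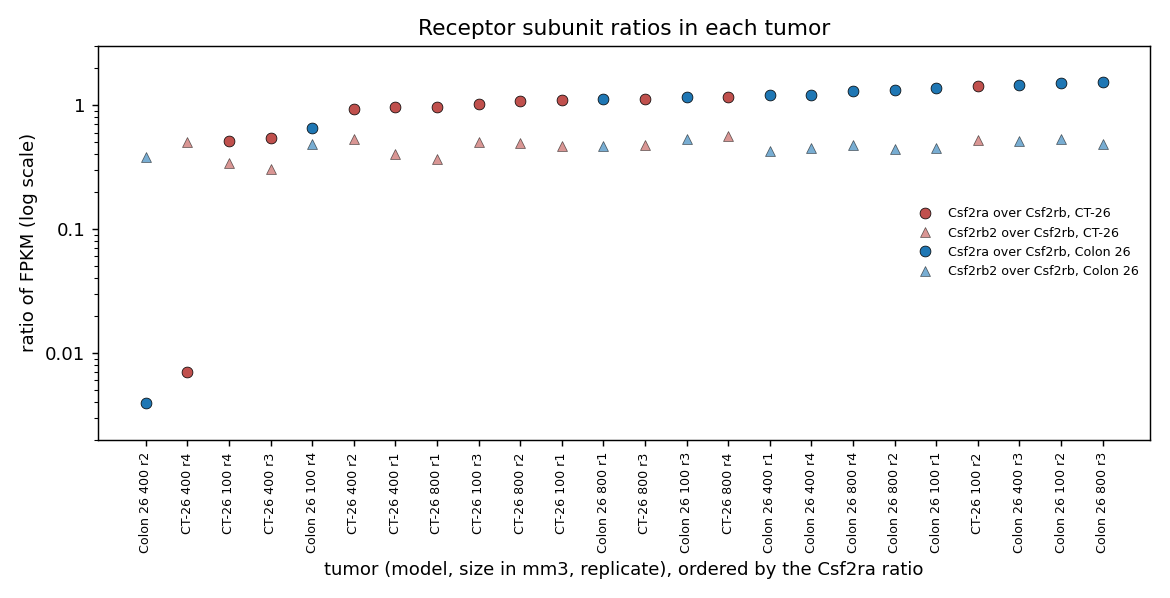
Ratios of Csf2ra to Csf2rb (circles) and of the paralog Csf2rb2 to Csf2rb (triangles) in FPKM, on a log axis, for the 24 tumors in order of the first ratio. The 2 lowest circles lie at 0.00397 and 0.00696, 3 lie between 0.508 and 0.651 and 19 between 0.933 and 1.535, while all triangles lie between 0.307 and 0.563.

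Each receptor with a characteristic host cell was then set against markers of that cell. The measure was the log2 CPM of the receptor less the mean log2 CPM of the markers, and the models were compared by exact permutation of the model labels, two-sided, with 4 tumors per model, 9 tests in all and a smallest possible p of 0.029. Kit stood apart most from its markers. The 8 mast cell markers summed to between 73.4 and 230.1 FPKM in CT-26 tumors of 100 mm3, 44.6 and 123.5 FPKM at 400 mm3 and 68.4 and 174.7 FPKM at 800 mm3. In Colon 26 tumors they summed to between 8.42 and 16.4, 3.50 and 10.8, and 0.745 and 4.47 FPKM, with Fcer1a at the floor at 800 mm3. Kit relative to these markers was higher in Colon 26 by 2.41, 2.85 and 3.74 on the log2 scale (exact permutation p = 0.0286 and adjusted p = 0.0643 at each size), in 4 of 4 tumors above all CT-26 tumors. On log2(FPKM + 1), where low markers count less, the differences were 1.87, 1.82 and 2.36. Kit CPM itself was lower or overlapping in Colon 26 at the same sizes. Kit less 5 endothelial markers averaged -0.81, -1.02 and -1.08 in CT-26 and -1.70, -1.36 and -1.37 in Colon 26 over the 3 sizes, given as a description. Of 4 melanocyte markers, Dct and Mlana were at the floor in 2 of the 3 Colon 26 sizes, and the list summed to at most 1.04 FPKM in any tumor.

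Csf1r relative to 8 macrophage markers was higher in Colon 26 by 0.48 at 100 mm3 (exact permutation p = 0.0571, adjusted p = 0.103), 0.58 at 400 mm3 (p = 0.0286, adjusted p = 0.0643) and 0.32 at 800 mm3 (p = 0.0857, adjusted p = 0.129). Colon 26 tumors lay above all CT-26 tumors in 3, 4 and 2 of 4 cases. The macrophage-marker sums overlapped between the models at each size, with 916 to 1457 against 1005 to 1357 FPKM at 100 mm3. Csf3r relative to 8 neutrophil markers differed by -0.78, 0.53 and 0.55 and did not pass the test (exact permutation, adjusted p = 0.184, 0.4 and 0.257). The neutrophil gene Ly6g was at the floor in all groups, and the neutrophil sums ranged from 10.8 to 91.4 FPKM in CT-26 tumors of 400 mm3 and from 4.64 to 17.5 FPKM in Colon 26 tumors of that size, which moved in the same direction as Csf3r there. The part of neutrophil content in the Csf3r difference was not tested beyond these values.

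**Figure D5:**
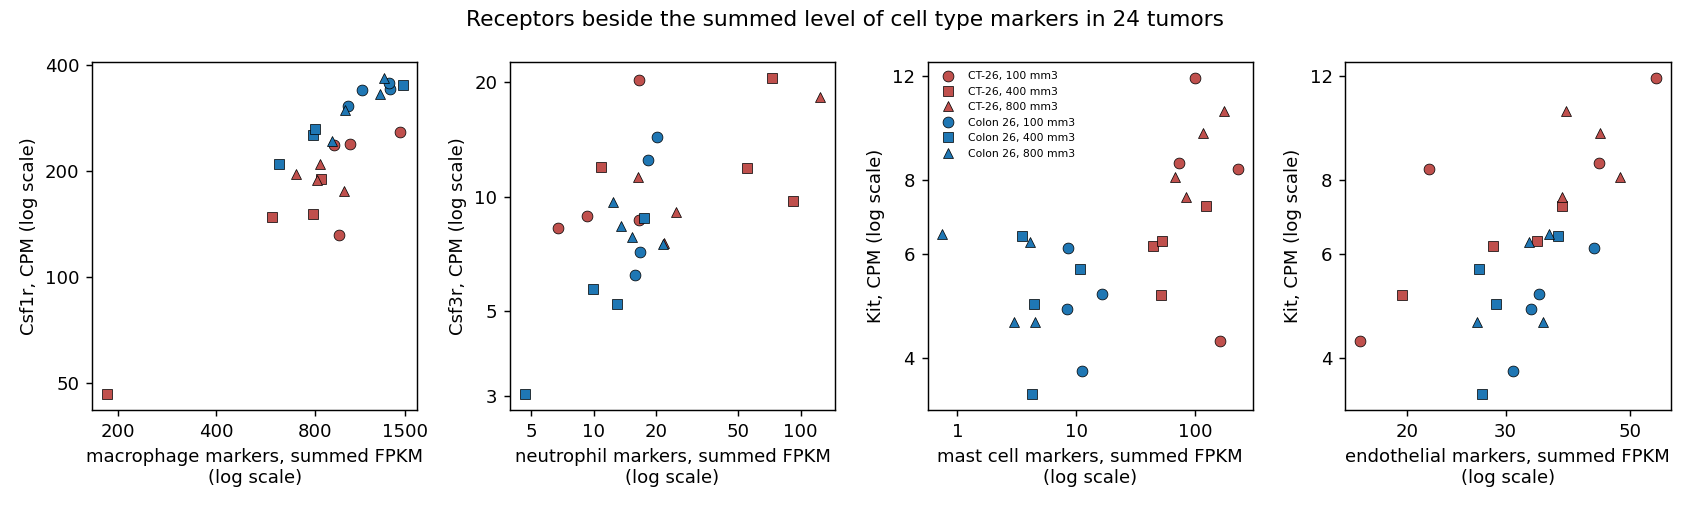
CPM of Csf1r, Csf3r and Kit against the summed FPKM of macrophage, neutrophil, mast cell and endothelial markers, both on log axes; points are the 24 tumors, colored by model and shaped by size. Mast cell markers separate the models while Kit overlaps, and the CT-26 tumor with the lowest Csf1r, 46.4 CPM, also has the lowest macrophage sum, 185.4 FPKM.

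Growth of the tumors brought no calls among the members in the main tests, and few among all genes. No member was called between 400 and 100 mm3 or between 800 and 100 mm3 in either model by edgeR, DESeq2 or limma. In these 4 edgeR comparisons, 0%, 0%, 0.0131% and 1.33% of all genes were called, in the order CT-26 at 400 and 800 mm3 and Colon 26 at 400 and 800 mm3. For the CT-26 comparisons without calls, 3356 and 1610 genes had an unadjusted p under 0.05, and DESeq2 called 150 and 39 genes. Among the members, an unadjusted p under 0.05 was reached by 0 of 9 and 1 of 9 in CT-26 (Il34 at 800 mm3) and by 2 of 8 and 2 of 8 in Colon 26 (Csf1 with Csf1r at 400 mm3, Csf1 with Il34 at 800 mm3). Csf1 in Colon 26 went from 316 to 382 CPM at 100 mm3 to between 404 and 524 CPM at 800 mm3 without overlap, a log2 fold change of 0.32 ± 0.09 (adjusted p = 0.094) under the fold threshold. By the p threshold alone, 6.67% of all genes passed in that comparison and 0.0197% at 400 mm3. Il34 at 800 mm3 was above the 100 mm3 tumors by 0.25 ± 0.08 in CT-26 (adjusted p = 0.418) and by 0.29 ± 0.09 in Colon 26 (adjusted p = 0.107). Csf2 in CT-26, at few counts, exceeded the 100 mm3 tumors by 1.10 ± 0.51 at 400 mm3 (adjusted p = 0.245). At 800 mm3 the Csf2 rise was 1.15 ± 0.56 (adjusted p = 0.497), and the groups overlapped at both sizes. In Colon 26 Csf2 was not tested. Its mean there was 0.181 CPM at 100 mm3 and 0.476 CPM at 800 mm3, without overlap. Csf2ra at 400 mm3 differed from 100 mm3 by -0.67 ± 0.86 in CT-26 (adjusted p = 0.674) and -0.47 ± 0.88 in Colon 26 (adjusted p = 0.837), and by -0.26 and -0.06 without the tumors at 2 counts and 1 count. Csf3r in Colon 26 at 400 mm3 differed by -0.82 ± 0.36 (adjusted p = 0.394) and was called without Colon 26 replicate 1 of that size.

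The test of the difference between the models in the change from culture to 100 mm3 tumor called 4 of 9 members, with 17.6% of all genes called. Csf2 changed by 1.97 ± 0.69 more on the log2 scale in Colon 26 (adjusted p = 0.0319). It fell in CT-26 from 1.20 ± 0.13 CPM (SD, n = 3) to 0.354 ± 0.197 CPM (SD, n = 4) and averaged 0.150 ± 0.017 and 0.181 ± 0.096 CPM in Colon 26. Here too Csf2 passed the low-count filter only through the CT-26 cultures, so its call adds no support. Csf1r, Csf2rb and Csf2ra gave 3.62 ± 0.96 (adjusted p = 0.00717), 3.49 ± 1.04 (adjusted p = 0.014) and 5.13 ± 2.29 (adjusted p = 0.0926). These values depend on the few counts in culture, where Colon 26 was at the floor for all 3 and CT-26 for Csf2ra too, and their sizes are no bounds. All 3 passed the low-count filter only through the tumors, so their calls add no support. For Csf2ra the contrast in culture was 2 counts against 0 in each library, and the call was lost with all 30 libraries in the fit (adjusted p = 0.472) and without any one of 9 libraries, the 6 cultures included. Kitl differed by 0.59 ± 0.10 (adjusted p = 0.000365), under the fold threshold, where 51% of all genes passed by p alone. For the change from 100 to 800 mm3, no member was called by edgeR or DESeq2 with 0.0308% of all genes called by edgeR (0.0801% by p alone), and 1 of 9 members, Csf1, had an unadjusted p under 0.05 (0.50 ± 0.14, adjusted p = 0.159).

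Of 43 other genes of these pathways, listed as related cytokines and receptors, signal transducers, transcription factors and inducers of the ligands, 25 passed the low-count filter in the culture comparison, and 5 were higher and 2 lower in Colon 26, where 22.9% of all genes were called in either direction. Their median log2 fold change was 0.19, against 0.01 over all genes tested. Lyn, a Src-family kinase downstream of Kit and Csf2rb, was lower by -5.58, with 10 to 11 counts in the Colon 26 cultures, and Gab2, an adaptor of the same receptors, was lower by -1.61. Higher in Colon 26 were the proteoglycan Sdc1 (2.62), which can bind Il34, the myeloid transcription factor Cebpa (2.27), the transducer Stat5a (1.55), the progenitor factor Gata2 (1.15) and the feedback inhibitor Socs1 (1.08). Csf2rb2 was not tested in that comparison. In tumors, 37 of the 43 genes were tested at each size. Called were 1 higher at 100 mm3, 2 lower at 400 mm3, and 1 higher and 1 lower at 800 mm3. Of all genes tested, 13.2%, 14.3% and 14.1% were called at these sizes. Sdc1 was higher at 100 mm3 (1.10) and 800 mm3 (1.01), the neutrophil transcription factor Gfi1 was lower at 400 mm3 (-1.93) and 800 mm3 (-1.21), and the inflammatory cytokine Il1b was lower at 400 mm3 (-1.62). The medians were 0.03 at 400 mm3 and 0.20 at 800 mm3, against 0.03 and -0.01 over all genes, and within 0.01 of 0 for both at 100 mm3.

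From culture to 100 mm3 tumor, 23 of 36 tested pathway genes were higher in CT-26 and 22 of 36 in Colon 26, beside 22.2% and 20.8% of all genes, and the others were not called. Their medians were 2.19 and 1.83 on the log2 scale, against 0.06 and 0.05 over all genes, and were the same with genes at the floor set to their bounds. As with the receptors, genes at the floor in culture entered only through the tumors. The adaptor Tyrobp was at least 470.2-fold higher in CT-26 tumors and at least 1101-fold higher in Colon 26 tumors. The phosphatase Inpp5d was at least 806-fold higher in Colon 26 tumors. Il1b, an inducer of Csf2 and Csf3, was at least 107.1-fold and 99.6-fold higher, and Tnf at least 21.2-fold and 39.1-fold. Csf2rb2 had log2 fold changes of 7.23 and 8.29. During growth 1 pathway gene was called, Il6 at 800 against 100 mm3 in Colon 26 (1.72, adjusted p = 0.00574), where 1.33% of all genes were called. In the test of the model difference from culture to tumor, 38 pathway genes were tested, of which 6 had a higher and 4 a lower log2 change in Colon 26 than in CT-26. Of all genes tested there, 8.29% were called higher and 9.31% lower. Lyn (5.55), Tyrobp (5.21), Inpp5d (3.899) and the myeloid transcription factor Spi1 (2.19) had the higher change in Colon 26, and Cebpa (-1.77) the lower. Tyrobp was at the floor in the cultures of both lines and Inpp5d in those of Colon 26, so their sizes depend on few counts. Lyn averaged 13.5 CPM in CT-26 cultures and 0.268 CPM in Colon 26 cultures, against 79.1 and 77.6 CPM in the 100 mm3 tumors.

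Among 14720 genes with a mean of at least 10 counts in the tumors of both models, the 3 whose CPM ran most like each member were found by the smaller of its Pearson correlations over the 12 CT-26 and the 12 Colon 26 tumors, given as a description over tumors that share size groups and libraries. Csf1r ran with Cmklr1 (r = 0.969 in CT-26 and 0.956 in Colon 26), a chemoattractant receptor, with the nucleotide receptor P2ry6 and with Tlr1. Kit ran with Gpihbp1 (r = 0.831 and 0.921), a protein of capillary endothelium, with Adgrf5 and with the Notch ligand Dll4. Csf3r ran with Trim30b (r = 0.858 and 0.939), Nod2 and Lilr4b, and Csf2rb with Ppm1j (r = 0.823 and 0.897), Bambi and its paralog Csf2rb2. For Csf2ra, Arg1 came first (r = 0.829 and 0.886), followed by Fcrlb and Clec7a, but the rank correlations with Arg1 were 0.0979 and 0.441, and the 2 tumors that nearly lacked Csf2ra entered these values. The ligands had looser partners, with Ggta1 first for Csf1 (r = 0.82 and 0.772), Vps52 for Il34 (r = 0.658 and 0.73), Mcur1 for Kitl (r = 0.787 and 0.675) and Ppox for Csf2 (r = 0.734 and 0.821).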

How the data were processed

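Gene expression was measured by paired-end RNA-seq in 30 libraries, and samples were grouped from their titles and characteristics. The authors quantified genes in Array Studio with Ensembl release 78, the aligner, build and strand setting are not given in the sources used here, and the deposited table holds estimated counts per gene, of which 23% of the non-zero values are not whole. A second table of FPKM, the authors' length- and depth-scaled values, was deposited beside it. The study's own tests used DESeq2 1.24.0, per the submitters' processing notes. Symbols were found for 52207 of 53431 gene IDs (97.7%).

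Here the estimated counts were rounded and tested in edgeR 4.0.16 (R 4.3.3) with trimmed-mean scaling, filterByExpr and the quasi-likelihood test, using only the groups compared. The planned design named raw counts. Differential expression needed a Benjamini-Hochberg adjusted p of at most 0.1 and a log2 fold change of at least 1 in size. Alternatives were DESeq2 1.42.0, median-of-ratios and library-size scaling, no filter on low counts, all 30 libraries in 1 fit, limma 3.58.1 on log2(FPKM + 1) and log2(FPKM + 0.1), and leaving out each library. A fit without the tumors at or under 3 Csf2ra counts was chosen after seeing the data. Fits were tested on simulated data. Levels of receptors against markers used log2(CPM + 0.1), scipy 1.17.1 and Python 3.11.15.

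The 10 members were followed in every comparison, and the growth and model-difference results print values for only part of them. Of the 43 pathway genes, those called were named, up to 6, largest fold change first, and 3 most similar genes were sought per member. Csf2rb2 was named whether called or not, except in the growth and model-difference results. The values of 1 listed gene are not reported here. Members and lists were chosen with earlier results of these data known. Bounds against a gene at the floor used 3 counts in the shallowest library of the group, which covers counting error only.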

Additional observations from a re-analysis of the deposited data

Results flagged for a closer look

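Of 59 sets of 4 tumors tested for a single value far from the others, 4 held one, where chance alone gives about 1 in 20. Csf2 in CT-26 tumors of 400 mm3 had its lowest value, 0.299 CPM, in replicate 4, against 0.852 to 0.946 CPM in the other tumors. Csf3 in CT-26 tumors of 800 mm3 had its highest value, 0.379 CPM from 10 counts, in replicate 1, against 0.0294 to 0.0674 CPM. Csf1r in CT-26 tumors of 100 mm3 had its lowest value, 131 CPM, in replicate 1, against 238 to 259 CPM. Csf3r in CT-26 tumors of 100 mm3 had its highest value, 20.2 CPM, in replicate 2, against 8.27 to 8.89 CPM.

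The change from culture to 100 mm3 tumor passed the edgeR test of a difference between the models for 4 members. The difference on the log2 scale, Colon 26 less CT-26, was 1.97 for Csf2 (adjusted p = 0.0319), 3.62 for Csf1r (adjusted p = 0.00717), 5.13 for Csf2ra (adjusted p = 0.0926) and 3.49 for Csf2rb (adjusted p = 0.014). Csf2 passed the low-count filter only through the CT-26 cultures and the 3 receptors only through the tumors, so these calls add no support. For the 3 receptors the Colon 26 cultures were at or under 3 counts, so these sizes depend on values near the floor. Csf2ra was at the floor in the CT-26 cultures too, at 2 counts each, so its value contrasts 2 counts with 0 and was lost with all 30 libraries in the fit (adjusted p = 0.472) and without any one of 9 libraries.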

How the results depend on the processing

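Members' fold changes kept their direction and their side of the threshold in 433 of 441 values under other tools, scalings, filters and fits, and in 530 of 549 values without 1 library. Direction turned once among them, for Csf3r at 100 mm3, which was -0.21 with all libraries, 0.214 without CT-26 replicate 2 and down to -0.411 without Colon 26 replicate 3. In culture, 2 members were called, against 5 with DESeq2, 5 with all 30 libraries in the fit and 6 with no filter on low counts, where receptors near the floor and, with no filter, Csf3 were among the additions. At 800 mm3, 1 member was called, against 2 with library-size scaling and in both limma fits, with Csf1 as the addition. Without 1 library, the number called ranged from 2 to 3 in culture (with Csf1r added), from 1 to 2 at 100 mm3, from 2 to 4 at 400 mm3, from 1 to 2 at 800 mm3, from 0 to 1 for Colon 26 tumors of 400 against 100 mm3 and from 3 to 4 for the model difference from culture to tumor, and was the same in the other comparisons. In growth comparisons, 48 of 586 values of members not named with a test there changed sign, all from differences of at most 0.269.

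Csf1r relative to macrophage markers passed the threshold at 100 mm3 on the FPKM scale (0.488) and without Cd68 (0.484) or Mertk (0.530). At 800 mm3 it passed in 2 of 18 settings, without Mertk (0.375) and in a fit without 1 tumor. Without 1 tumor or 1 marker it ranged from 0.299 to 0.622 at 100 mm3, from 0.477 to 0.641 at 400 mm3 and from 0.1896 to 0.4001 at 800 mm3. Kit relative to mast cell markers ranged in the same settings from 2.02 to 2.72, from 2.60 to 3.05 and from 3.29 to 4.04 at the 3 sizes. Over 18 settings, those with all tumors included, it passed the threshold in 10, 10 and 11 at the respective sizes. Without 1 tumor its adjusted p reached 0.129, 0.103 and 0.103. The smallest p that 3 against 4 tumors allow is 0.057, so losing the threshold there says nothing about stability. No paired analysis was possible because the labels carry no replicate numbers shared between groups. Depth limits Csf2 and Csf3, and receptors in culture. The cause of these changes was not tested.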
